A study of Mus musculus with 59 samples.

Results

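The comparison described here is that of voluntary running in the adult cortex of vehicle-treated offspring: 3 arrays from mice housed with a running wheel (MC+RW) against 3 arrays from mice without a wheel (MC). These 6 arrays, chosen by the group names in their labels, are part of 59 arrays in the series. All were hybridised with RNA from male C57BL/6 mice aged 12 to 13 weeks that had taken no behavioural test. The dams of both groups had been given 0.5% methylcellulose (MC), the drug vehicle, by mouth on 3 consecutive days of gestation from embryonic day 12.5. Wheels went into the cages of the MC+RW mice after weaning. The labels call the arrays biological replicates and name neither litters, distance run nor the time of day at which the brains were taken, so the p-values measure the spread between these arrays. Each comparison below also refers to 2 sets of the same age measured on 3 arrays per group: the cortex of offspring of dams dosed with valproic acid at 300 mg/kg on the same days (VPA and VPA+RW), and the hippocampus of MC and MC+RW mice.

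A running wheel is the standard means of letting laboratory mice exercise at will, and running is known for raising neurotrophic factors and the birth of neurons in the hippocampus. In cortical neurons, firing switches on immediate early genes within minutes, and their messenger RNAs decay soon after, so their level follows the recent activity of the tissue. Neuropeptide and growth factor genes answer more slowly, and clock genes cycle over the day in nearly every cell.

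Signals are array brightness scaled to a common trimmed mean of 500, on a linear scale unless log2 is stated, with 1 probe set (the group of probes that reads a transcript) per gene. A gene passed when its adjusted p (limma, Benjamini-Hochberg) was under 0.05. Groups are said not to overlap when every array of a group lay above every array of the other. The MC and MC+RW cortex arrays correlated at 0.971 to 0.987 within groups. Of the 66 pairs among all 12 cortex arrays, 0 were identical. The trimmed means before scaling ran from 285 to 398. The ratios of 3-prime to 5-prime signal, a sign of RNA integrity, were 1.23 to 1.32 in MC and 1.27 to 1.28 in MC+RW for Actb. The share of probe sets under the floor of 32 was at most 20.0% in the MC arrays and between 21.3% and 23.6% in the MC+RW arrays, without overlap, and the part of this in the results below was not tested. The MC+RW array with number 3 had the lowest share of its group. In VPA+RW cortex the array with number 3 stood apart from its group, with Fos at 628 against 3692 and 3588 and Dbp at 2825 against 1317 and 1149. That array is outside the comparison but enters the common estimate of the spread, so the MC+RW calls that turn on it are given with and without it. It is also 1 of the 3 VPA+RW arrays. The list medians, counts without overlap and shares of the same sign in VPA cortex are given only with that array. Leaving it out was chosen after these values had been seen. The p-values without it therefore describe its weight in the fit and give no support of their own.

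The labelled tissue was checked against its markers. The neocortical marker Lamp5 read 4661 to 4887 in MC cortex and 1600 to 1677 in MC hippocampus, and the hippocampal marker Prox1 read 95 to 102 and 427 to 532. The cortex samples also carried striatal markers: Drd2, the dopamine receptor of striatopallidal neurons, read 1023 to 1073 in MC cortex against 143 to 203 in MC hippocampus, and the summed signal of 16 striatal markers was 32720 to 39410 against 9627 to 11000. The striatal sum in MC+RW cortex, 36610 to 43880, overlapped that of MC.

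Running was accompanied by few differences that passed. Pim3, a serine/threonine kinase of the Pim family that promotes cell survival and growth, fell, and Dclk1, a microtubule-associated kinase of neurons, rose. These were 2 of 13644 genes tested (0.0147%). In tissue RNA, fewer cells of a type and less RNA per cell cannot be told apart. Below the threshold, 1835 genes (13.4%) had an unadjusted p under 0.05, where 682 would be reached with no difference at all. The MC and MC+RW arrays did not overlap for 2421 genes (17.7%), of which 1060 (7.77%) were higher and 1361 (9.98%) lower with running. With so few arrays per group, many genes separate completely by chance alone. Lack of overlap is therefore weak evidence for any single gene, here and below. The number of genes without overlap that chance would give was not computed. The median log2 change over all genes was -0.019.

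Pim3 read 1323, 1336 and 1442 in the MC arrays and 999, 976 and 923 in the MC+RW arrays. It fell by 0.50 on the log2 scale (95% interval -0.64 to -0.37, limma adjusted p = 0.0229, n = 3 each), and no MC+RW array reached the lowest MC array. Both other Pim3 probe sets were lower in every MC+RW array too, with log2 differences of -0.55 and -1.12. In VPA cortex the same probe set read 1474, 1455 and 1365 without and 1090, 1017 and 1031 with a wheel, a log2 difference of -0.45 that did not pass over all genes (limma adjusted p = 0.0711). In hippocampus Pim3 overlapped between the groups, at 729, 842 and 855 in MC and 939, 717 and 850 in MC+RW.

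Dclk1 read 6293, 6246 and 6474 in MC and 8026, 7767 and 7782 in MC+RW. It rose by 0.31 on the log2 scale (95% interval 0.22 to 0.40, limma adjusted p = 0.0316, n = 3 each), with no overlap. Its other 8 probe sets, which read other parts or forms of the transcript, did not show this: their log2 differences ran from -0.28 to 0.10. In VPA cortex the probe set that rose read 6756, 6830 and 6832 without and 7275, 7215 and 6989 with a wheel, without overlap. The effect there was 0.073 on the log2 scale, with a limma adjusted p of 0.851 and a 95% interval from -0.018 to 0.16. The difference between the running effects was -0.24 (limma adjusted p = 0.768). In hippocampus the same Dclk1 probe set read 4717, 5440 and 5230 in MC and 5773, 5998 and 5979 in MC+RW, again without overlap, with a log2 difference of 0.21 (limma adjusted p = 0.351).

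The 2 calls depended on which arrays were in the fit. With only the 6 arrays compared, 12 genes passed (0.0922%), 3 of them higher and 9 lower, and Dclk1 was not among them. Without the VPA+RW array with number 3, 19 genes passed (0.14%), 7 higher and 12 lower, including both Pim3 and Dclk1. Leaving out the MC+RW array with number 3 gave 124 calls (0.912%), 83 higher and 41 lower, while 0 genes passed without MC array 1, MC array 3 or MC+RW array 2, where 1 of the groups had only 2 arrays.

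A further 10 genes in each direction, ranked by p among genes without overlap, did not pass over all genes. Nrn1, which encodes neuritin, an activity-regulated protein that promotes neurite growth, read 5617, 5881 and 5354 in MC and 7047, 7246 and 6765 in MC+RW (log2 difference 0.32, limma adjusted p = 0.0537). Pcnt, which encodes the centrosomal scaffold pericentrin, read 684, 524 and 615 in MC and 1019, 1013 and 1039 in MC+RW (log2 difference 0.76, limma adjusted p = 0.0537), but its other probe set differed by -0.56 with all arrays lower. Sstr4, a receptor for somatostatin, read 1170, 1160 and 1181 in MC and 1610, 1561 and 1560 in MC+RW. In Sstr4 the arrays of each group lay close together and far from the other group.

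Csnk1e, a casein kinase that phosphorylates the Period proteins of the clock, had a log2 difference of 0.36, and its second probe set differed by 0.080. Pdp1, the phosphatase that activates pyruvate dehydrogenase, read 4237, 4832 and 4232 in MC and 6149, 5323 and 5669 in MC+RW, and its second probe set was higher as well. Hivep3, Spred2 (an inhibitor of Ras signalling), Sorl1 (a sorting receptor for the amyloid precursor protein) and the granin gene Scg2 had log2 differences of 0.37, 0.30, 0.31 and 0.42.

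Among the 10 lower genes that did not pass, Ccn1, a secreted matrix protein that is itself an immediate early gene, read 553, 607 and 374 in MC and 230, 157 and 134 in MC+RW (log2 difference -1.56, limma adjusted p = 0.0611). Mmp7, a matrix metalloproteinase, read 152, 328 and 288 in MC and only 35, 31 and 55 in MC+RW, at or near the floor. Casr, the calcium-sensing receptor, read 291, 404 and 218 in MC and 80, 22 and 121 in MC+RW, with 1 array under the floor. The log2 differences of both genes, -2.62 and -2.12, therefore depend on the floor. Saal1 read 536, 602 and 591 in MC and 346, 418 and 385 in MC+RW. Lypd6b, Tamm41 (a mitochondrial enzyme of cardiolipin synthesis), Adprhl2, Mthfd1l (a mitochondrial enzyme of folate metabolism) and Ecel1 (a membrane peptidase of neurons) had log2 differences between -0.75 and -0.44, and Btg2 is described with the immediate early genes.

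**Figure D1:**
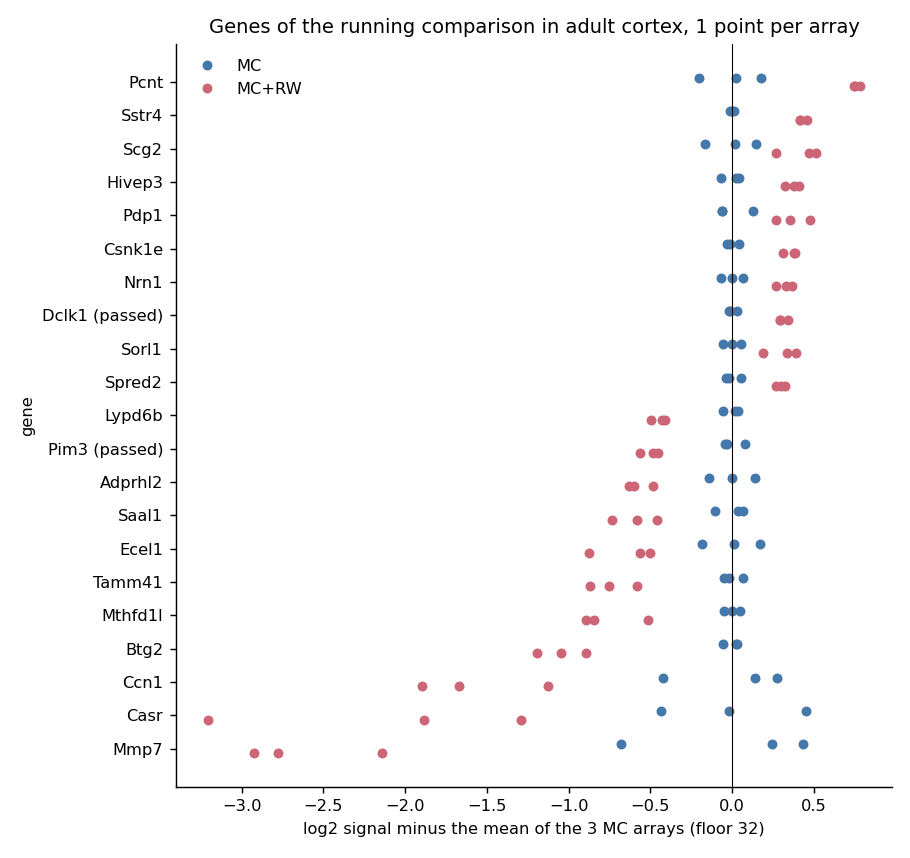
Signal of the 2 genes that passed and of genes ranked next, as log2 signal minus the mean of the 3 MC arrays (horizontal axis), 1 point per cortex array of MC and MC+RW. No MC+RW point overlaps an MC point of the same gene, by the rule that chose them, and the differences run from -2.62 for Mmp7 to 0.76 for Pcnt.

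Gene lists gave a broader view: of 577 distinct list genes tested in 34 lists, 0 passed with limma over all genes. With every probe set tested in place of 1 per gene, 3 of 28427 probe sets passed (0.0106%), those of Pim3 and Dclk1 and a second probe set of the list gene Homer1. The lists are therefore described by their medians and by how many members had no overlap, beside the 7.77% of all genes that were higher and the 9.98% that were lower.

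Immediate early genes stood lowest among the pathway lists. Of 30 members tested, 11 were lower in every MC+RW array, 3 were higher, and the median log2 difference was -0.30 against -0.019 for all genes. With 1 probe set per gene none passed over all 12 cortex arrays, where 9 lower and 3 higher members had an unadjusted p under 0.05 (6.89% and 6.56% of all genes). Fos, the transcription factor most used as a marker of neuronal activity, read 4250, 4569 and 5154 in MC and 2626, 2460 and 2654 in MC+RW. The groups were well separated, with a log2 difference of -0.85, but the limma adjusted p was 0.433 with the spread of all cortex arrays. Fos fell with a limma adjusted p of 0.0066 with only the 6 arrays compared and of 0.0045 without the VPA+RW array with number 3. That array had been picked out by its own Fos value, so the second p-value is not independent of the choice.

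Btg2, an antiproliferative gene induced by activity, read 1110, 1172 and 1179 in MC and 504, 558 and 621 in MC+RW (log2 difference -1.05, limma adjusted p = 0.0684), and its second probe set differed by -1.12. Dusp1, a phosphatase that switches off MAP kinases, read 2677, 3240 and 3148 in MC and 1908, 1507 and 1464 in MC+RW. Junb, a partner of Fos in the AP-1 factor, read 1387, 1597 and 1526 in MC and 856, 840 and 737 in MC+RW. In these genes the running arrays lay at about the same distance below the MC arrays as in Fos. Btg2, Dusp1, Junb and Ier2 had log2 differences of -1.05, -0.90, -0.89 and -0.96. All 4 passed with only the 6 arrays compared (limma adjusted p from 0.0066 to 0.0458) and without the VPA+RW array with number 3 (from 0.0045 to 0.0256).

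Npas4, a factor induced by calcium entry at synapses, read 717, 655 and 543 in MC and 252, 226 and 405 in MC+RW (log2 difference -1.15, limma adjusted p = 0.177). Egr2, Egr4, Gadd45b and Klf2 also had no overlap, with log2 differences of -0.72, -0.23, -0.54 and -0.35. Arc, a regulator of synaptic strength, read 3683, 3962 and 4801 in MC and 3873, 2107 and 2268 in MC+RW, so that 1 running array lay among the MC arrays, and Nr4a1 overlapped in the same way. Their log2 differences were -0.64 and -0.43, lower on average as in the genes above. Egr1 overlapped, at 10438, 9369 and 12073 in MC and 12205, 12192 and 9616 in MC+RW.

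The 3 members that were higher in every MC+RW array were Homer1, Egr3 and Inhba. Homer1, a scaffold protein of the postsynapse, read 4332, 4052 and 4453 in MC and 5627, 5085 and 4583 in MC+RW. Egr3 read 5571, 6546 and 6850 in MC and 8713, 6975 and 7425 in MC+RW. Inhba, an activin subunit, read 399, 407 and 362 in MC and 561, 458 and 483 in MC+RW. The separation was narrow in Egr3 and in this Homer1 probe set, with log2 differences of 0.28 and 0.25. A second Homer1 probe set, with a lower mean signal, read 2614, 3336 and 3690 in MC and 6650, 5408 and 5416 in MC+RW. There Homer1 rose by 0.87 on the log2 scale, with a limma adjusted p of 0.0481 over all probe sets tested, and no array overlapped. The same probe set read 3305, 3582 and 3311 in VPA and 5752, 6145 and 5111 in VPA+RW cortex, and 1318, 1198 and 1416 in MC and 2674, 2860 and 2581 in MC+RW hippocampus. The running arrays were thus higher without overlap in all 3 sets. Of the other 4 Homer1 probe sets, 1 differed by 0.68 without overlap, and the rest by 0.052 to 0.090 with overlap.

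**Figure D2:**
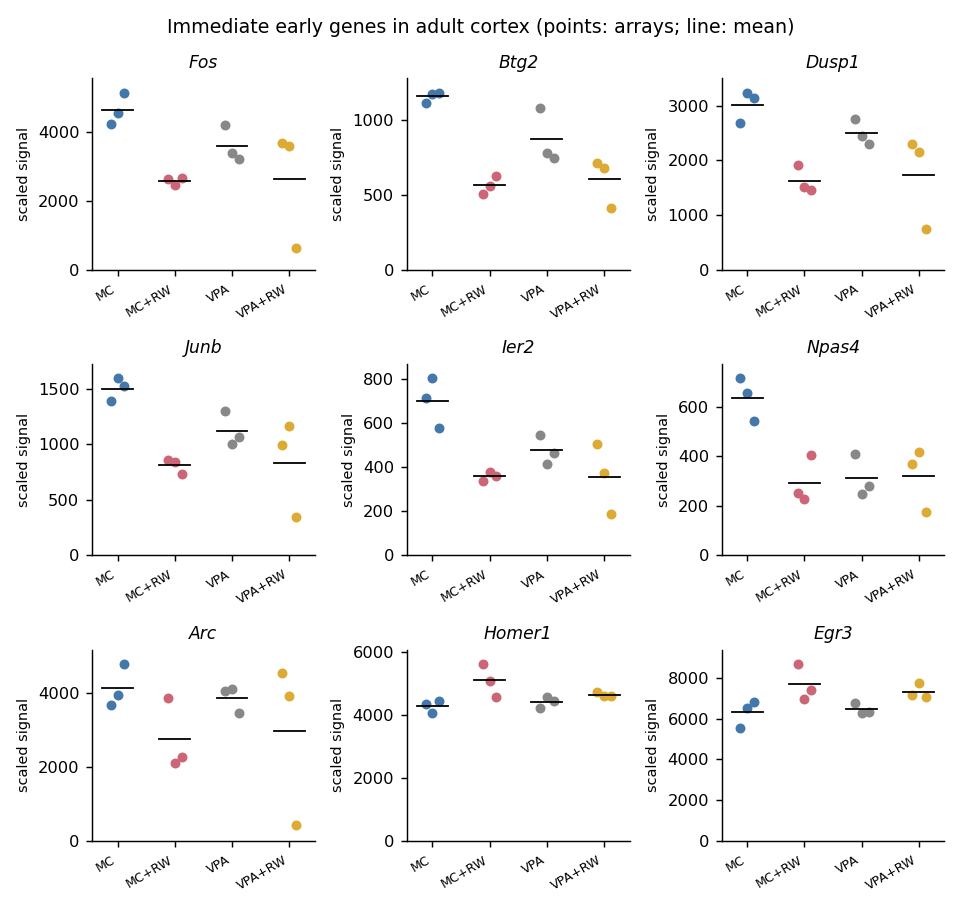
Scaled signal (vertical axis, from 0) of 9 immediate early genes in the 4 cortex groups, 1 point per array with the group mean as a line. Fos, Btg2, Dusp1, Junb, Ier2 and Npas4 are lower in all 3 MC+RW arrays than in MC, Homer1 and Egr3 are higher, Arc overlaps, and the lowest VPA+RW point of Fos is the array at 628.

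The promoter of Btg2 is shown because it holds a cAMP response element, the binding site of the activity-dependent factor CREB. The element was searched as TGACGTCA, which reads the same on both strands, in the 250 bases before each gene's start in the RefSeq promoter table (GRCm38.p6). It was present in 508 of 32851 windows (1.55%). Of 24 immediate early genes with a window, 2 held it, Btg2 and Dusp1. The Btg2 window is chr1:134079156-134079405 on the minus strand, printed 5-prime to 3-prime with the element in capitals.
Btg2: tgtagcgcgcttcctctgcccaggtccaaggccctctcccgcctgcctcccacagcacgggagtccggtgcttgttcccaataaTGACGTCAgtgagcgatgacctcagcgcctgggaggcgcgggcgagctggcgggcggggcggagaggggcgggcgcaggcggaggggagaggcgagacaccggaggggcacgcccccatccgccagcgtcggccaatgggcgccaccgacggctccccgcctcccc

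Neurotrophic factor and neuropeptide genes lay on the other side. Of 25 members tested, 10 were higher in every MC+RW array and 2 lower, the median log2 difference was 0.15, and none passed over all genes. The log2 differences of the members ran from -0.44 to 0.60, and the 2 lower ones are not named here. At an unadjusted p under 0.05 stood 10 higher members and 0 lower. Vip, a peptide of disinhibitory interneurons, read 2058, 2204 and 2232 in MC and 2537, 2628 and 2599 in MC+RW (log2 difference 0.26, limma adjusted p = 0.125). Scg2, the granin precursor of secretoneurin in dense-core vesicles, read 3961, 4322 and 3479 in MC and 5405, 5578 and 4706 in MC+RW (log2 difference 0.42, limma adjusted p = 0.0958). The running arrays lay above all MC arrays in both genes.

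Sst, the somatostatin gene of dendrite-targeting interneurons, read 4474, 4716 and 4453 in MC and 5073, 5369 and 4974 in MC+RW. Crh, the corticotropin-releasing hormone gene, read 829, 974 and 707 in MC and 1062, 1200 and 1247 in MC+RW, with a log2 difference of 0.49. Npy, the neuropeptide Y gene, read 3599, 3617 and 3142 in MC and 4014, 4356 and 3842 in MC+RW. All 3 are made by cortical interneurons, and none had an adjusted p under 0.20. Vgf, a growth factor-inducible secreted peptide precursor, read 2995, 3207 and 3353 in MC and 4066, 3925 and 4185 in MC+RW, a log2 difference of 0.35. Cck, Ntrk2 (the receptor of BDNF) and Pdyn also showed no overlap, at log2 differences of 0.15, 0.15 and 0.18.

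Bdnf itself, the neurotrophin most linked to exercise, overlapped narrowly. Its probe set read 469, 604 and 758 in MC and 754, 789 and 824 in MC+RW, a log2 difference of 0.40 (limma adjusted p = 0.271), and the MC arrays varied more than the running arrays. A second Bdnf probe set differed by 0.44 with no overlap.

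The interneuron markers, a list that shares Vip, Sst, Npy and Cck with the peptides, had 5 of 17 members higher without overlap, 0 lower and a median log2 difference of 0.038, which was below 0 for the values as deposited. Their summed signal was 38330 to 40380 in MC and 41010 to 43840 in MC+RW, and its part in the peptide values was not tested. Pvalb, the calcium-binding protein of fast-spiking interneurons, read 1826, 1803 and 1802 in MC and 2069, 2000 and 1909 in MC+RW.

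**Figure D3:**
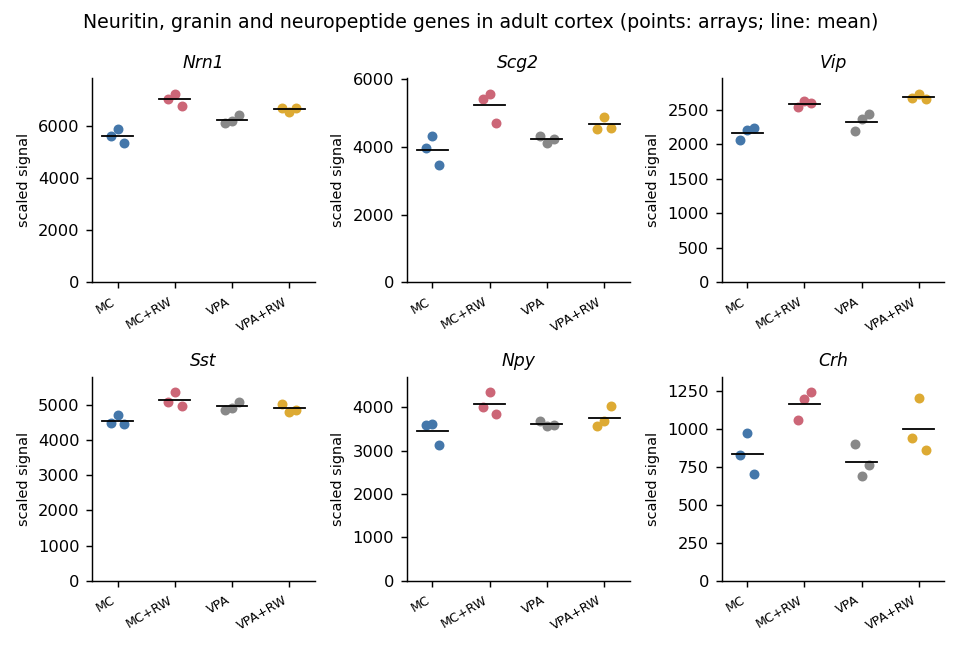
Scaled signal (vertical axis, from 0) of 6 genes for neuritin, a granin and neuropeptides in the 4 cortex groups, 1 point per array with the group mean as a line. Each is higher in all 3 MC+RW arrays than in all 3 MC arrays, with the largest relative distance in Crh (log2 difference 0.49).

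The cAMP response element also stood before 3 of 19 peptide and growth factor genes with a window, Pcsk1, Scg2 and Sst. The windows of Scg2 (chr1:79440027-79440276) and Sst (chr16:23890845-23891094), both on the minus strand and with the element in capitals, are shown to set beside that of Btg2, since the same letters precede genes that were higher and a gene that was lower in the running arrays. A match is a description of the letters only.
Scg2: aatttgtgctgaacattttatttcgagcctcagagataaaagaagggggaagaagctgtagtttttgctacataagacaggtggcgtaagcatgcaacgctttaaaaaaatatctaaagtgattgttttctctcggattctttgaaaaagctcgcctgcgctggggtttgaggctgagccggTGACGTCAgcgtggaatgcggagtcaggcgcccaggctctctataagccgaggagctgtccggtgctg
Sst: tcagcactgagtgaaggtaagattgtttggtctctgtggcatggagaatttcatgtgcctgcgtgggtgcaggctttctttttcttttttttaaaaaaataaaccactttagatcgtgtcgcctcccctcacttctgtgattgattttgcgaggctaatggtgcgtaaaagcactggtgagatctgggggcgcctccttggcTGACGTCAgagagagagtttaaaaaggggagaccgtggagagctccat

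Clock genes lay on both sides. Of 21 members tested, 5 were higher and 4 lower without overlap, none passed over all genes, and the median log2 difference was 0.060. Dbp, a transcription factor driven directly by the Clock and Arntl proteins, read 1847, 1858 and 2176 in MC and 1089, 1093 and 969 in MC+RW, a log2 difference of -0.90 (limma adjusted p = 0.177). Ciart, a repressor of the clock, read 310, 307 and 410 in MC and 164, 203 and 177 in MC+RW, a log2 difference of -0.91 (limma adjusted p = 0.129). In both genes every running array lay well below the lowest MC array. Without the VPA+RW array with number 3, Dbp fell with a limma adjusted p of 0.00094 and Ciart with 0.0281. Leaving that array out was chosen after its Dbp value had been seen. Dbp also passed with only the 6 arrays compared (limma adjusted p = 0.0066).

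Per3 and Nr1d1, further clock genes that are driven by Clock and Arntl, read 495, 541 and 504 against 429, 460 and 388, and 616, 684 and 637 against 549, 541 and 488, in MC and MC+RW. Arntl, which encodes the activator BMAL1, stood on the other side at 968, 1074 and 969 in MC and 1155, 1085 and 1374 in MC+RW. Clock, Bhlhe40, Per2 and Csnk1e were also higher without overlap, with log2 differences of 0.25, 0.23, 0.16 and 0.36. Among the members without overlap, Arntl, Clock, Bhlhe40, Per2 and Csnk1e were therefore on the opposite side from Dbp, Ciart, Per3 and Nr1d1.

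In hippocampus 4 of these 9 genes, Dbp, Ciart, Per3 and Arntl, separated the same way, and the other 5 overlapped. The list's median was -0.059 in hippocampus, with 2 higher and 6 lower without overlap, where 6.49% of all genes were higher and 6.29% lower. It was -0.089 in VPA cortex, with 3 higher and 7 lower, where 6.41% of all genes were higher and 6.82% lower. Both medians were of the opposite sign to that in MC cortex. Dbp read 1050, 1373 and 1276 in MC hippocampus and 761, 521 and 507 in MC+RW, and Ciart read 164, 172 and 128 against 84, 44 and 47, without overlap. Per3 was lower and Arntl higher in every running array there, with log2 differences of -0.42 and 0.30. In VPA cortex Dbp read 2723, 2838 and 2857 without a wheel and 1317, 1149 and 2825 with it, so that 2 of the 3 running arrays were lower and the array with number 3 was not. The VPA+RW hippocampus array with number 3 also lay high, with Dbp at 1650 against 689 and 552.

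**Figure D4:**
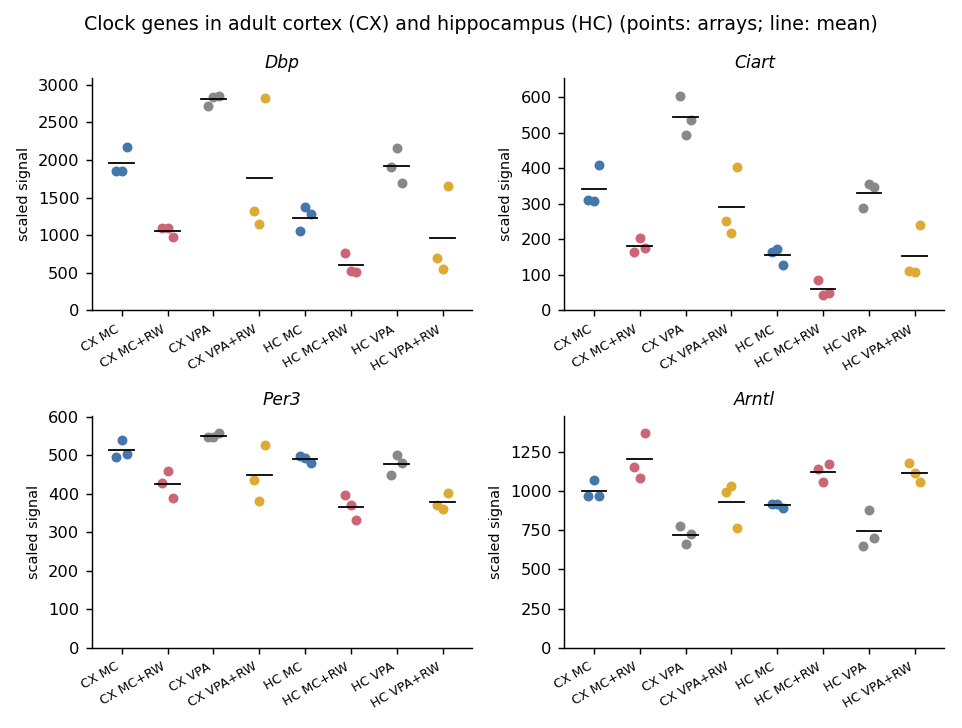
Scaled signal (vertical axis, from 0) of Dbp, Ciart, Per3 and Arntl in cortex (CX) and hippocampus (HC) of the 4 adult groups, 1 point per array with the group mean as a line. In MC offspring of both tissues the running arrays are lower for Dbp, Ciart and Per3 and higher for Arntl. The VPA+RW arrays with number 3 lie high for Dbp in both tissues, at 2825 in cortex and 1650 in hippocampus.

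Clock and Arntl bind the E-box, searched here as CACGTG, which reads the same on both strands. Of 32851 windows, 1978 (6.02%) held it, and of 18 clock genes with a window 5 did: Bhlhe41, Ciart, Cry1, Per1 and Tef. The Ciart window (chr3:95882229-95882478, minus strand) is shown because it holds 3 E-boxes, in capitals.
Ciart: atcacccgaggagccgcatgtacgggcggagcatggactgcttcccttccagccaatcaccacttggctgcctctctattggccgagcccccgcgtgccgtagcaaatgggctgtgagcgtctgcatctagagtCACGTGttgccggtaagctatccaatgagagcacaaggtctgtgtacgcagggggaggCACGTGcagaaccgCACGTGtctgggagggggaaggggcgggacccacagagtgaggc

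Genes of the glucocorticoid response were split. Of 23 members tested, 4 were higher and 4 lower without overlap, none passed, and the median log2 difference was -0.075, above 0 with quantile normalization. Klf9, a transcription factor induced by glucocorticoids, read 7863, 7666 and 8711 in MC and 9858, 9521 and 9492 in MC+RW (log2 difference 0.25, limma adjusted p = 0.113). Zbtb16, which responds strongly to glucocorticoids, read 682, 693 and 629 in MC and 983, 884 and 1152 in MC+RW (log2 difference 0.58). Fkbp5, a co-chaperone that dampens the glucocorticoid receptor, read 923, 940 and 812 in MC and 1075, 1002 and 1157 in MC+RW, and the metallothionein gene Mt1 differed by 0.25. These 4 targets were higher, while both receptors were lower in every running array: Nr3c1 read 2319, 2360 and 2338 against 2182, 2157 and 2221, and Nr3c2 read 504, 502 and 521 against 439, 445 and 418. The remaining members without overlap were Dusp1, which is also an immediate early gene, and Pdk4, a kinase that inhibits pyruvate dehydrogenase, with a log2 difference of -0.23.

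Genes of energy metabolism had mostly small positive differences. Of 35 respiratory chain genes 32 had a positive log2 difference, against 45.7% of all genes. Of these 35, 5 were higher without overlap and 0 lower, and the median was 0.094, but -0.0035 with quantile normalization. Cox5a, a subunit of cytochrome c oxidase, read 9401, 9250 and 9068 in MC and 10680, 10698 and 9962 in MC+RW (log2 difference 0.18). Among 23 genes of glycolysis and lactate the median was 0.098, with 3 higher and 0 lower without overlap. Ldha, which encodes the A subunit of lactate dehydrogenase, read 5222, 5013 and 4663 in MC and 6379, 6287 and 5653 in MC+RW (log2 difference 0.30, limma adjusted p = 0.129), and Tpi1 and Pfkp, enzymes of glycolysis, differed by 0.17 and 0.12. Oxct1, an enzyme that lets the brain burn ketone bodies, differed by 0.21. Of 18 genes of fatty acid oxidation and ketone use, Oxct1 was the 1 that was higher without overlap, and 3 were lower: Acaa2, Bdh1 and Etfdh, with log2 differences of -0.34, -0.15 and -0.20. The median of that list was -0.041. None of these genes passed over all genes. For the respiratory chain and the glycolysis lists, the mean log2 signal in MC+RW array 3 lay within the MC arrays.

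Heat shock genes had the highest median of the pathway lists, 0.16 over 15 members, with 5 higher and 0 lower without overlap and none passing. The list's mean log2 signal in MC+RW array 3 lay within the MC arrays. Hsph1, a nucleotide exchange factor of the HSP70 chaperones, read 5497, 5040 and 5139 in MC and 6895, 6863 and 6018 in MC+RW (log2 difference 0.33, limma adjusted p = 0.113). Stip1, which links HSP70 to HSP90, read 1284, 1064 and 1397 in MC and 1559, 1579 and 1605 in MC+RW. Hsp90aa1, the inducible HSP90, differed by 0.17, the mitochondrial chaperonin Hspd1 by 0.13 and the HSP90 co-chaperone Chordc1 by 0.20. A simple heat shock element, GAANNTTC, stood in 2199 of 32851 windows (6.69%) and before 6 of 12 heat shock genes with a window: Dnaja1, Hspa1a, Hspa1b, Hspb1, Hspd1 and Hspe1.

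Synaptic and channel lists had medians near 0, with members without overlap in both directions among the channels. The median log2 difference was 0.067 over 22 genes of glutamate receptors and the postsynapse, 0.075 over 24 of the presynaptic vesicle, -0.016 over 11 GABA-A receptor and related genes and 0.061 over 27 potassium channel genes, and that of the presynaptic list changed sign with quantile normalization. Without overlap, 4 postsynaptic members were higher and 0 lower, 5 presynaptic members higher and 0 lower, 2 GABA-A members higher and 1 lower, and 4 potassium channel members higher and 6 lower. Kcnip4, which encodes a protein that modulates A-type potassium channels, read 1611, 1676 and 1664 in MC and 1196, 1289 and 1287 in MC+RW (log2 difference -0.39, limma adjusted p = 0.206). Kcnj10, the inward rectifier of astrocytes that clears potassium, read 992, 1035 and 1046 in MC and 1180, 1381 and 1311 in MC+RW (log2 difference 0.33, limma adjusted p = 0.169). Gabrg1, a receptor subunit, read 1088, 1095 and 1153 in MC and 1005, 821 and 890 in MC+RW. Gabrb2, a more abundant subunit, read 5259, 5368 and 5385 in MC and 5772, 5788 and 5826 in MC+RW.

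Markers of cell types gave the following values beside these groups. The medians of the upper layer, layer 4 and 5, and layer 6 lists were -0.068, 0.011 and 0.022. Fezf2, the determinant of deep-layer projection neurons, read 336, 316 and 381 in MC and 541, 546 and 471 in MC+RW, a log2 difference of 0.59 (limma adjusted p = 0.169). It was 1 of 4 layer 4 and 5 members that were higher without overlap, of 13 tested, while Qrfpr was lower, at 232, 201 and 193 in MC and 150, 150 and 149 in MC+RW. Astrocyte markers were positive in 19 of 20 members, where 45.7% of all genes were, with a median of 0.082. That median ran from 0.0175 to 0.16 over the alternative settings, and the list's mean log2 signal in MC+RW array 3 lay within the MC arrays. Microglia markers had a median of 0.064, and oligodendrocyte markers 0.0039. Endothelial and pericyte markers had a median of -0.044, with 0 of 20 members higher and 3 lower without overlap. Newborn neuron markers, 11 tested, had a median of 0.028 with 0 higher and 1 lower. The medians of the layer 6, oligodendrocyte, endothelial and newborn neuron lists changed sign with quantile normalization, and those of the layer 4 and 5, layer 6, oligodendrocyte and newborn neuron lists with the values as deposited.

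Markers of the choroid plexus and the meninges gave the following sums. The summed signal of 14 choroid plexus markers was 1612 to 1654 in MC and 1678 to 3061 in MC+RW, with the defining marker Otx2 under the floor in all 6 arrays. Ttr, the transthyretin gene of the choroid plexus, read 312, 239 and 253 in MC and 1462, 1837 and 348 in MC+RW (limma adjusted p = 0.439). Of 6 members tested, Ttr was the 1 with a positive log2 difference and 5 were negative, with a median of -0.30. Without overlap 1 member was higher and 1 lower. The summed signal of 17 meningeal and fibroblast markers was 16230 to 18850 in MC and 18200 to 22530 in MC+RW, with 4 of 16 tested members higher and 0 lower without overlap. The part of these tissues in the other values was not tested.

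**Figure D5:**
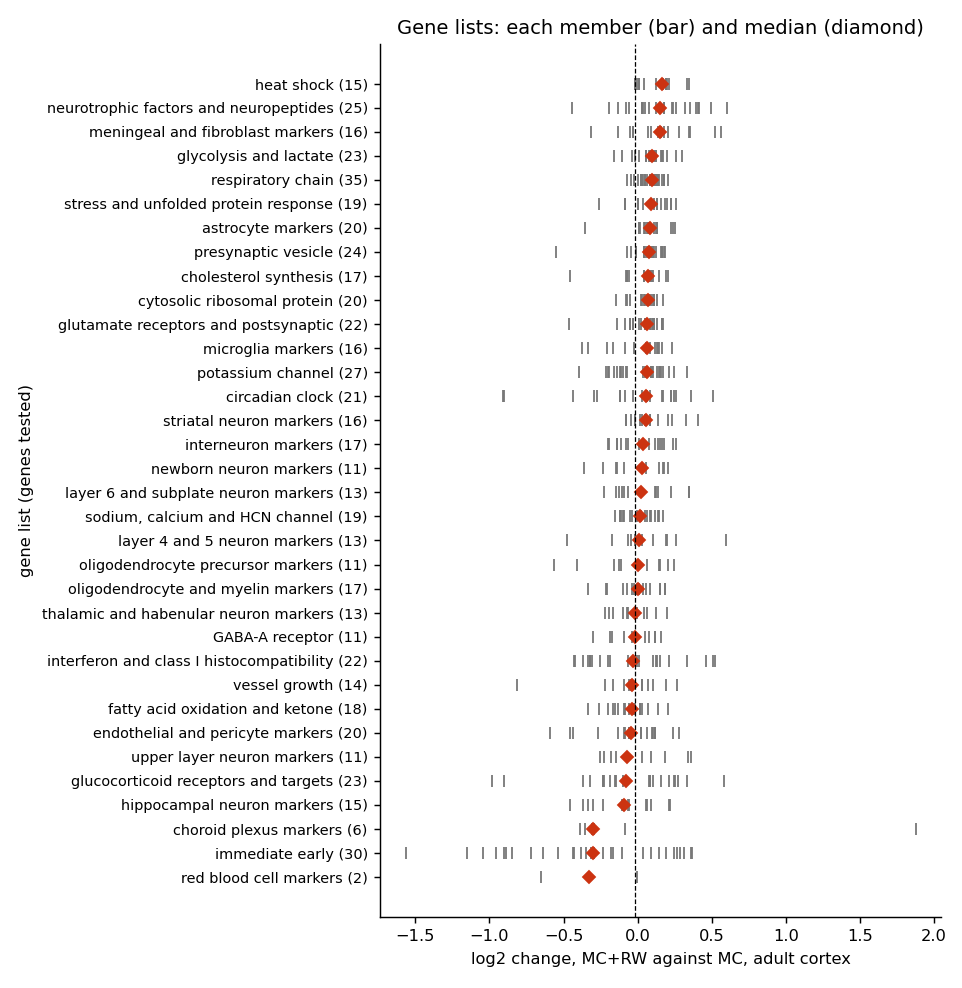
The log2 difference between MC+RW and MC cortex (horizontal axis) for each tested member (grey bars) and the median (red diamonds) of the 34 gene lists, ordered by median, with the number of tested genes in brackets and the median of all genes as a dashed line. Heat shock genes lie highest at 0.16 and immediate early genes near the bottom at -0.30, next to the small choroid plexus and red blood cell lists.

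The running effect of vehicle offspring was then set beside that in VPA offspring, which came from other arrays. In VPA cortex 0 of 13644 genes passed (limma, 849 or 6.22% with an unadjusted p under 0.05), and 0 passed for the difference between both running effects (854 or 6.26% with an unadjusted p under 0.05). Of the 2421 genes without overlap in MC offspring, 65.3% had the same sign in VPA offspring, against 56.8% of all genes, and of the 22 named by passing or rank 18 did. The immediate early list had a median of -0.17 in VPA cortex with 2 of its members lower and 4 higher without overlap, where 6.82% of all genes were lower and 6.41% higher, and the peptide list a median of 0.14 with 5 higher and 0 lower.

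Genes ranked highest for a difference between offspring did not pass. Pcnt, higher in every MC+RW array, read 494, 682 and 594 in VPA and 481, 455 and 491 in VPA+RW (difference between effects -1.06, limma adjusted p = 0.109). Gsk3b, a kinase of Wnt and insulin signalling, read 3398, 3616 and 3512 in MC, 3984, 4243 and 3704 in MC+RW, 3819, 3911 and 3836 in VPA and 3145, 3063 and 2902 in VPA+RW (difference -0.52, limma adjusted p = 0.109). Mmp7 followed, with 161, 59 and 171 in VPA and 141, 250 and 287 in VPA+RW (difference 3.49, limma adjusted p = 0.219). Slc7a5, a large neutral amino acid transporter, and Ggt7 came next with differences of -0.63 and -2.57. For Gsk3b and Slc7a5 the wheel groups lay higher in MC and lower in VPA offspring, without overlap in either.

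In hippocampus of MC offspring 0 of 13503 genes passed (limma, 1172 or 8.68% with an unadjusted p under 0.05), and 0 of 14049 passed for the difference between cortex and hippocampus (685 or 4.88% with an unadjusted p under 0.05). Of the 2345 genes without overlap in cortex that were also tested in hippocampus, 73.9% had the same sign, against 63.8% of all genes. The labels do not say whether cortex and hippocampus with the same number came from the same mouse, so the tissues cannot be taken as separate mice. Deviations of same-numbered arrays from their group means correlated across tissues at 0.289, -0.163 and 0.033 in MC. In MC+RW these correlations were 0.048, -0.041 and -0.069. Ggt7 read 481, 433 and 205 in MC+RW cortex and 563, 471 and 150 in MC+RW hippocampus. In MC it read 219, 149 and 256 in cortex and 231, 278 and 199 in hippocampus. The peptide list had a median of 0.13 in hippocampus, with 10 members higher and 0 lower without overlap where 6.49% of all genes were higher and 6.29% lower. There the largest values included Npy at 2171, 1816 and 2051 in MC and 2850, 2954 and 3380 in MC+RW. Nrn1 read 6248, 5814 and 6180 in MC hippocampus and 6731, 7069 and 7860 in MC+RW. The immediate early list had a median of -0.072 there, with 6 members higher and 4 lower, and Fos overlapped at 1041, 1861 and 1501 in MC and 1241, 798 and 969 in MC+RW.

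Among the genes ranked highest for a difference between the tissues were Pmpcb, Trnp1, Plbd2 and Mfsd12. Pmpcb, a subunit of the mitochondrial processing peptidase, read 785, 807 and 976 in MC cortex and 1642, 1606 and 1055 in MC+RW cortex, but 1629, 1347 and 1567 in MC hippocampus and 817, 876 and 1212 in MC+RW hippocampus. The arrays separated in opposite directions, and the difference of 1.39 did not pass (limma adjusted p = 0.568). Plbd2 differed by -0.67 between the tissues, Mfsd12 by -0.45 and Trnp1 by -0.42, all with the same adjusted p.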

How the data were processed

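RNA from 6 cortex samples was compared on Affymetrix Mouse 430 2.0 arrays, with the other 6 adult cortex arrays in the fit and 12 hippocampus arrays as a second tissue. What the authors deposited is the probe set intensity on a linear scale. GCOS is named in the submitters' processing notes, with no algorithm or scaling target in the sources used here. The number of arrays limits the precision.

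Arrays were brought to the same 2% trimmed mean, 500, and log2 was taken above a floor of 32. The annotation gave 1 symbol to 34958 of 45101 probe sets, several to 932 and none to 9211, and names were updated for 34754 by Entrez number (GRCm38.p6). The 18194 genes kept the probe set with the highest mean signal over the adult arrays. Genes at 100 or more in at least 3 arrays were tested in limma 3.58.1 (R 4.3.3), with 1 term per group, moderation by an intensity trend and p-values adjusted by Benjamini-Hochberg across the tested genes. Cortex and hippocampus were compared in a joint fit of all adult arrays.

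Genes were named by a rule: those that passed, the 10 higher and 10 lower without overlap and with a signal of at least 200 that had the smallest p, the 4 members of each list that ranked first by p, and up to 5 genes from each comparison of effects. Further genes, such as Fos, Arc, Egr1, Nr4a1, Bdnf, Ttr, Pvalb, Drd2 and Prox1, were picked with their values in view. A gene that the rule gives is not reported here. The members and lists were chosen with earlier results of these data known. Same-numbered arrays of the groups were checked for shared deviations (correlations 0.135, -0.025 and 0.166), and the numbers were not taken to pair them.

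On simulated data at the spread of the cortex arrays (13577 genes), 46.9% of genes changed by 0.5 and 82.5% of those changed by 1 on the log2 scale were recovered, with 6 false calls of 132. Alternatives were log2(signal + 32), quantile normalization, unscaled deposited values, no filter, a filter at 200, no trend, every probe set, a replicate block, only the arrays compared, an animal block across tissues and leaving out each array. Leaving out the VPA+RW array with number 3 was added after the data had been seen. Figures used matplotlib 3.10.9 with pandas 2.3.3 and numpy 2.4.6 in Python 3.11.15, and files were read into R by data.table (its version was 1.17.8).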

Additional observations from a re-analysis of the deposited data

Results flagged for a closer look

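For 9 of the 95 genes named and checked across alternatives, the running arrays of MC cortex all lay on the opposite side from the running arrays of a second set, and in none did the test of the difference itself pass in limma. Between VPA and MC offspring in cortex, the running effects (log2) were 0.76 in MC and -0.30 in VPA offspring for Pcnt (VPA minus MC -1.06, adjusted p = 0.109), whose second probe set differed the other way in MC offspring. They were 0.18 and -0.35 for Gsk3b (difference -0.52, adjusted p = 0.109), 0.18 and -0.45 for Slc7a5 (difference -0.63, adjusted p = 0.307), 0.23 and -0.37 for Bhlhe40 (difference -0.60, adjusted p = 0.768), and -0.30 and 0.26 for Gabrg1 (difference 0.56, adjusted p = 0.768).

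Between cortex and hippocampus of MC offspring, Pmpcb differed by 1.39, with 0.72 in cortex and -0.66 in hippocampus. Plbd2 differed by -0.67, Mfsd12 by -0.45 (both adjusted p = 0.568 in limma, as for Pmpcb) and Lamp5 by 0.25 (adjusted p = 0.762). Of the 2421 genes without overlap in MC cortex, 312 had no overlap in VPA cortex in the same direction and 71 in the opposite one. In hippocampus these were 384 and 52 of the 2345 tested there. Over all genes, 56.8% had the same sign in VPA cortex and 63.8% in hippocampus. Without overlap, 6.41% of all genes were higher and 6.82% lower in VPA cortex, and 6.49% and 6.29% in hippocampus.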

How the results depend on the processing

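The count of genes that passed for MC+RW against MC in cortex, 2, was 1 with quantile normalization, 5 with the values as deposited (0 higher, 5 lower), 4 with a filter at 200, 0 without an intensity trend, 1 with the replicate number as a block, 12 with only the arrays compared and 19 without the VPA+RW array with number 3. It ran from 0 to 124 when each array was left out in turn: 0 without MC array 1, MC array 3 or MC+RW array 2, 4 without MC array 2, 2 without MC+RW array 1 and 124 without MC+RW array 3. The gene passing with the replicate block was Ccn1, and those passing as deposited, Btg2, Casr, Ccn1, Dbp and Mmp7, shared 0 with the 2 of the report. With the values as deposited the median over all genes was -0.066, and with quantile normalization 0.011. The cause of these moves was not tested. Of list members, 0 passed, against 3 as deposited, 1 with a filter at 200, 1 with the replicate block, 6 with only the arrays compared, 10 without the VPA+RW array with number 3 and 0 to 17 when each array was left out, with 17 without MC+RW array 3.

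For the running effect in VPA offspring 2 genes passed as deposited and 0 to 3 with each array left out (3 without the VPA+RW array with number 3). For the difference between offspring 2 passed as deposited and 0 to 1 with each array left out (1 without MC+RW array 1 or VPA array 1). In hippocampus 1 passed without a filter and 0 to 7 with each array left out (7 without MC+RW array 1 and 1 without MC+RW array 2). For the difference between tissues 0 to 1 passed (1 without MC hippocampus array 1 or MC+RW cortex array 1) and 0 with the animal as a block. Egr1 was -0.028 with quantile normalization in place of 0.087, and of 95 genes named it was the only one to change sign under any alternative. Over 15 alternatives the medians of the immediate early (-0.39 to -0.19), peptide (0.10 to 0.18), heat shock (0.063 to 0.22) and glycolysis (0.026 to 0.13) lists kept their sign, and those of the clock, respiratory chain and glucocorticoid lists kept it in 14, 14 and 11. Signal near background limits Mmp7, Casr and other genes near the floor.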
